A study of Mus musculus with 4 samples.

Results

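Nr5a1, Wt1, Gata4, Zfpm2, Lhx9, Emx2, Cbx2, Six4 and Nr0b1 encode regulators of gene expression that act in the gonad before it becomes a testis or an ovary. They were taken by name from the single-cell count table, and all 9 were found among its 21495 genes. Their levels were followed from the coelomic epithelium to the supporting and interstitial lineages in gonads with the attached mesonephros from 4 samples, each of which was 1 pool of 3 to 4 pairs of gonads. The XY control at E11.5 came from embryos grown by tetraploid complementation from the parental G4 embryonic stem cell line, an XY hybrid of C57BL/6J and 129 mice. The XY KO at E11.5 and the XY KO at E11.75 came in the same way from G4 cells in which both copies of the miR-17~92 cluster had been deleted with CRISPR/Cas9 and which had been picked as clones. The XX control at E11.5 came from bred mice, C57BL/6J males crossed with 129 females, and carried no deletion. The strain of the samples was given as C57BL/6 x 129S4/SvJae, which the methods name as the background of another mouse line of the study. All embryos of the XY KO groups descend from edited stem cells, so a difference between XY KO and XY control cannot be told apart from a difference between clones, and a difference between XX control and XY control cannot be told apart from the way the embryos were made. With 1 pooled sample per group, no difference between samples could be tested.

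Gonads of both sexes start from the same epithelium lining the body cavity beside the embryonic kidney. Its cells move inward and give rise to pre-supporting cells, which become Sertoli cells in the XY gonad and granulosa cells in the XX gonad, and to interstitial progenitors, the source of steroid-producing cells. Loss of most of these 9 regulators in mice stops the gonad from forming or lets XY gonads fail to switch on Sry, the Y-linked gene that starts testis development. Nr5a1, also called SF1, is a nuclear receptor that drives steroid production and cooperates with SRY at the enhancer of Sox9. Wt1 is a zinc finger factor required for gonad and kidney. Gata4 and its cofactor Zfpm2, also called FOG2, act as a pair on Sry. Lhx9, Emx2 and Six4 are homeodomain factors that support growth of the epithelium and expression of Nr5a1. Cbx2 is a Polycomb subunit that reads methylated histone H3 and is needed for Sry and Nr5a1 expression, and Nr0b1, also called DAX1, is an X-linked partner that represses Nr5a1 activity.

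The deleted cluster encodes 6 mature miRNAs of 4 seed families, which pair with messenger RNAs through bases 2 to 8. They are shown first because these sequences are the difference engineered between the XY KO and XY control cells. Each is given 5′ to 3′ from RefSeq with the seed in capitals, and all lie on the plus strand of chromosome 14 in build GRCm38.p6, between chr14:115043684-115043706 for miR-17-5p and chr14:115044476-115044496 for miR-92a-3p.
miR-17-5p: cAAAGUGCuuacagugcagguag
miR-20a-5p: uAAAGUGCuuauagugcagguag
miR-18a-5p: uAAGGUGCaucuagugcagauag
miR-19a-3p: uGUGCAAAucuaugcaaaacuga
miR-19b-3p: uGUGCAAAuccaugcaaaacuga
miR-92a-3p: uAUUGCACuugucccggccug
miR-17-5p and miR-20a-5p share a seed, and miR-19a-3p and miR-19b-3p share another, whereas miR-18a-5p differs from the miR-17-5p seed by 1 base. The longest annotated 3′ UTR of each of the 9 genes was searched on the sense strand for the complement of each seed, which reads GCACTTT for miR-17-5p and miR-20a-5p, GCACCTT for miR-18a-5p, TTTGCAC for miR-19a-3p and miR-19b-3p and GTGCAAT for miR-92a-3p. A match to bases 2 to 7 followed by an A was counted as well, and a match to bases 2 to 8 followed by an A was called an 8mer. Zfpm2, Lhx9, Emx2 and Six4 held at least 1 such site. Of 17302 mouse genes with an annotated 3′ UTR, 43.3% held one and 12.3% held an 8mer.

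The sites of Zfpm2, Lhx9 and Emx2 are printed because these are the members with sites whose levels are followed through the XY KO samples. They are given in the sense of the transcript with the matched bases in capitals, and the coordinates are those of the capitals in build mm10.
Zfpm2, miR-17-5p and miR-20a-5p, 8mer, chr15:41104109-41104116, plus strand: aggctccaattGCACTTTAtattttagcaa
Zfpm2, miR-19, chr15:41103894-41103900, plus strand: agcacatatggTTTGCACtgtatagtagc
Zfpm2, miR-92a-3p, chr15:41104301-41104307, plus strand: ttgctgttaaaTGCAATActttataaaga
Lhx9, miR-17-5p and miR-20a-5p, chr1:138828099-138828105, minus strand: aggctctgcatGCACTTTtgcatctaaca
Lhx9, miR-17-5p and miR-20a-5p, chr1:138826855-138826861, minus strand: atttgaaacagGCACTTTtttttttttta
Lhx9, miR-17-5p and miR-20a-5p, chr1:138826762-138826768, minus strand: gaaggcccaacGCACTTTtctatcatgta
Emx2, miR-19, chr19:59464544-59464550, plus strand: ggacttttaatTTTGCACttcacagtgtt
Zfpm2 was the only one of the 9 genes with an 8mer. Six4 had 7 sites of 7 bases in the longest 3′ UTR of the set, 5170 bases. In 1 stretch of it a miR-19 and a miR-17-5p site overlapped. Nr5a1, Wt1, Gata4, Cbx2 and Nr0b1 had none. A match is a description of letters and not of binding.

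The table held whole UMI counts, that is, counts of distinct captured RNA molecules, for 52745 cells assigned by the authors to 13 cell types. Several types are renamed here. In the deposited labels, pre-supporting cells are called Bipotential progenitors, Sertoli cells Supporting and the coelomic epithelium Epithelial. Interstitial progenitors are called Interstitial cells there, and mesonephric mesenchyme Mesonephros. Other names were spelled out or slightly reworded. The XY control had 23527 cells, the XY KO at E11.5 17057, the XY KO at E11.75 8492 and the XX control 3669, with totals of 37841392 to 105192238 UMIs. The published methods list the cell numbers of the XY KO samples the other way round. The stages used here are those of the deposited table, in which the sample named for each cell and the ending of its name, as the labels explain it, gave the same sample for all 52745 cells, and the values of both XY KO samples rest on this assignment. The same methods name the XY KO at E11.75 as the sample without a further technical replicate, and in the table that sample alone carries no replicate names. The median was 3893 to 4763 UMIs per cell in the XY samples and 15509 in the XX control, in which the deepest cell held 154650 UMIs, against at most 29875 in the XY samples, and in which cells had been filtered in another way. Pairs of samples shared 17 to 123 cell barcodes. Levels are given as CPM, the UMIs of a gene scaled to a common total, from UMIs summed over the cells of 1 type in 1 sample, in which fewer cells with a gene and less RNA of it per cell cannot be told apart. The intervals are exact 95% Poisson intervals for a level and exact binomial ones for a ratio, and cover counting error only, not the spread between embryos. Cell types are clusters of these same cells, so levels between types describe the clusters. The names were checked against markers. In pre-supporting cells, 5 to 7 of 8 supporting markers were highest of all types, and 7 of 8 Sertoli markers in Sertoli cells. The coelomic epithelium stood out less: of Upk3b, Krt19, Msln, Krt8 and Krt18, only 0 or 1 was highest there, and Msln was at 0 in 3 samples, although their summed level of 332.4 to 429.7 CPM lay above the median of 65.81 to 92.24 CPM in the other types. Interstitial markers summed to 1938 to 3170 CPM in interstitial progenitors and to 974.3 to 1515 CPM in the coelomic epithelium, so these 2 clusters are not cleanly apart. Among markers of other cells, those of germ cells summed to 15.92 to 26.0 CPM in pre-supporting cells, and those of erythroid cells to 562.7 CPM in the XX control and 804.9 to 1877 CPM in the XY samples.

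Nr5a1 (chr2:38692656-38714542, minus strand, mm10) was high in 6 cell types of the gonad and adrenal and far lower elsewhere. Its median over the samples was 297.0 CPM in Sertoli cells, 180.6 CPM in adrenal cells, 151.4 CPM in pre-supporting cells, 86.78 CPM in supporting-like cells, 51.06 CPM in the coelomic epithelium and 35.7 CPM in interstitial progenitors. The ranges over samples of each neighbouring pair in this order overlapped. Within samples, each step from pre-supporting cells down to interstitial progenitors held in 4 of 4. Adrenal cells were above pre-supporting cells in 2 of 3. Below these 6 types stood immune cells at 5.002 CPM, with no overlap. Nr5a1os is antisense to Nr5a1 and the use of strand in counting is not given in the sources used here, so the Nr5a1 counts are uncertain to that extent.

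Wt1 (chr2:105126529-105173616, plus strand) was found across the gonad and mesonephros. It was highest in Sertoli cells at a median of 750.9 CPM and in pre-supporting cells at 541.2 CPM. The coelomic epithelium followed at 467.6 CPM, interstitial progenitors at 428.6 CPM, supporting-like cells at 412.8 CPM, mesonephric epithelium at 344.5 CPM and mesonephric mesenchyme at 270.6 CPM, each overlapping its neighbour. Within samples, each step from pre-supporting cells down to mesonephric mesenchyme held in 4 of 4. Germ cells were lowest at 16.52 CPM. Immune cells carried 94.58 CPM in the XY control and 60.03 CPM in the XX control, against 10.66 CPM in the XY KO at E11.5. Immune markers summed to 596.7 CPM in this cluster of the XY control, 2629 in the XY KO at E11.5 and 2159 in the XX control. The median depth of its cells was 1488, 7040 and 18870.5 UMIs in the same order. The part of these differences in the Wt1 values was not tested.

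Gata4 and Zfpm2 encode partners in 1 complex, but their orders of cell types differed. Gata4 (chr14:63198922-63271692, minus strand) formed steps that did not overlap between samples, with 320.7 CPM in Sertoli cells, 233.3 CPM in pre-supporting cells and 136.7 CPM in the coelomic epithelium. It was lower in supporting-like cells, 76.77 CPM, and in interstitial progenitors, 67.94 CPM. Zfpm2 (chr15:40655035-41104592, plus strand) had no such steps within the gonad. Its medians were 192.4 CPM in Sertoli cells, 157.8 CPM in supporting-like cells, 125.1 CPM in pre-supporting cells, 104.8 CPM in interstitial progenitors and 82.2 CPM in the coelomic epithelium, and each range overlapped the next. Within samples, supporting-like cells were above pre-supporting cells, and interstitial progenitors above the coelomic epithelium, in 4 of 4. Sertoli cells were above supporting-like cells in 1 of 2, and pre-supporting cells above interstitial progenitors in 2 of 4. Endothelial cells still held 45.7 CPM. Gm49525, Gm49526 and Gm49524 overlap Zfpm2 on the same strand and are not in the count table, and their part in its counts was not tested.

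The homeodomain genes differed in where they were highest. Lhx9 (chr1:138825186-138848577, minus strand) was highest in the coelomic epithelium, with 556.9 to 842.6 CPM, above every sample of pre-supporting cells, whose median was 294.2 CPM, and of interstitial progenitors, 267.1 CPM. Sertoli cells had 66.62 CPM and supporting-like cells 33.86 CPM. Emx2 (chr19:59458372-59465357, plus strand) was shared with the mesonephros: pre-supporting cells had a median of 340.9 CPM, coelomic epithelium 302.5 CPM, mesonephric tubules 244.7 CPM and mesonephric epithelium 214.5 CPM, with 132.2 CPM in interstitial progenitors. Emx2os is antisense to Emx2, so its counts carry the same uncertainty as those of Nr5a1. Six4 (chr12:73099609-73113456, minus strand) was highest outside the gonadal soma, with 45.41 CPM in germ cells, 27.86 CPM in mesonephric tubules and 24.31 CPM in mesonephric epithelium, against 12.16 CPM in the coelomic epithelium and 4.771 CPM in pre-supporting cells.

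Cbx2 (chr11:119022962-119031270, plus strand) was spread over mesonephros and gonad. Mesonephric epithelium had 58.12 CPM, coelomic epithelium 45.33 CPM, mesonephric mesenchyme 38.68 CPM and Sertoli cells 31.14 CPM, while pre-supporting cells, at 17.47 CPM, stood 10th in the order. Nr0b1 (chrX:86191764-86195947, plus strand) belonged to the supporting side. Supporting-like cells had 104.9 CPM, pre-supporting cells 91.82 CPM and Sertoli cells 77.4 CPM, and without overlap between samples the coelomic epithelium followed at 18.81 CPM, adrenal cells at 14.28 CPM and interstitial progenitors at 13.5 CPM.

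**Figure D1:**
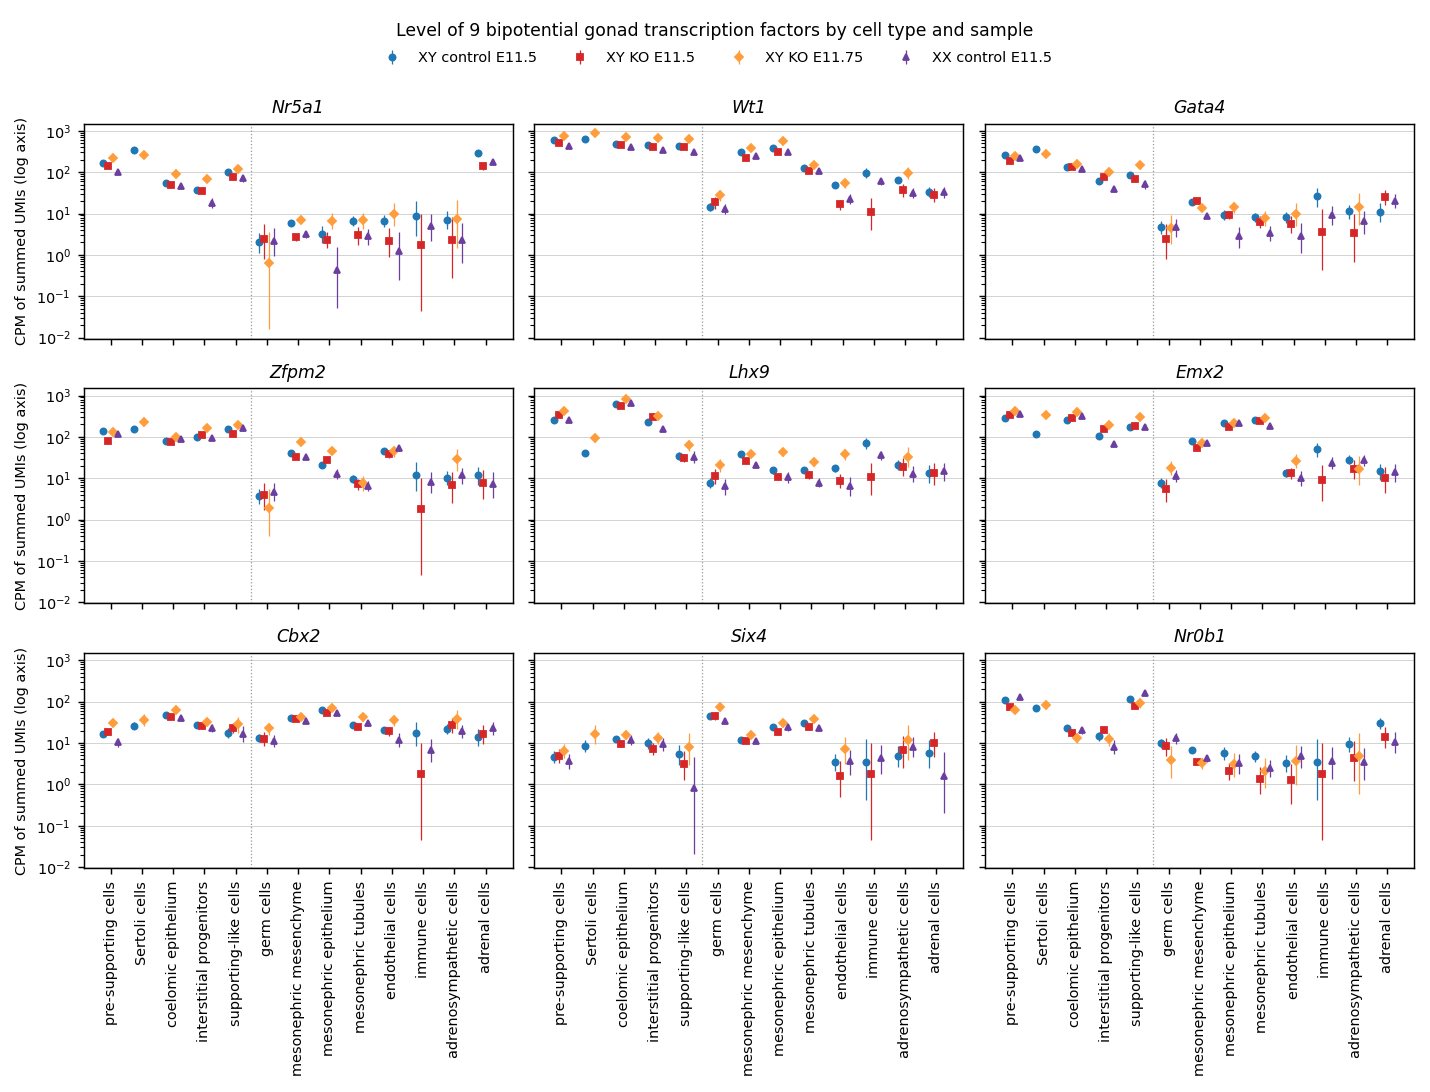
Level of each of the 9 genes in 13 cell types and 4 samples, as CPM of summed UMIs on a log axis, with exact 95% Poisson intervals; sums of fewer than 50 cells are left out, and the dotted line separates the 5 gonadal somatic types from the rest. Nr5a1 and Gata4 are low right of the line apart from Nr5a1 in adrenal cells, whereas Wt1, Emx2, Cbx2 and Six4 reach into the mesonephric types.

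From the coelomic epithelium to pre-supporting cells, Nr0b1 and Nr5a1 were higher, and Cbx2, Six4 and Lhx9 were lower. A ratio here is log2 of the CPM in one sum over that in the other, centred on the median gene, and genes with at least 100 UMIs over both sums were compared. In the XY control, 5 of 9 members lay at least 2-fold apart, as did 17.0% of all genes compared. Nr5a1 stood at 54.52 CPM in the coelomic epithelium and 162.3 CPM in pre-supporting cells of the XY control, 47.6 and 140.5 CPM in the XY KO at E11.5, 90.45 and 217.5 CPM in the XY KO at E11.75, and 46.03 and 100.3 CPM in the XX control. The log2 ratios were 1.65, 1.62, 1.28 and 1.20 in that order, so Nr5a1 was over 2-fold higher in pre-supporting cells of every sample. For Nr0b1, the repressor, the log2 ratios in the same order were 2.36, 2.12, 2.28 and 2.77. Gata4 was higher by 0.97 in the XY control and 0.96 in the XX control but by 0.52 and 0.64 in the XY KO samples. Zfpm2 was higher by 0.94 in the XY control, 0.11 in the XY KO at E11.5, 0.48 in the XY KO at E11.75 and 0.49 in XX control cells. Wt1 and Emx2 differed by at most 0.37 in any sample. Lhx9 was lower in pre-supporting cells, with log2 ratios of -1.18, -0.69, -1.01 and -1.32, and Cbx2 likewise, with -1.50, -1.11, -1.05 and -1.85. In the XY KO at E11.5 the Lhx9 ratio was thus closer to 0 than in the other samples.

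From the coelomic epithelium to interstitial progenitors, most members were lower and Zfpm2 alone was higher in every sample. In the XY control 3 of 9 members lay at least 2-fold apart, Lhx9, Emx2 and Gata4, against 8.99% of all genes compared. Lhx9 was lower by a log2 ratio of -1.46 in the XY control, -0.89 in the XY KO at E11.5, -1.43 in the XY KO at E11.75 and -2.15 in XX control cells. For Emx2 these values were -1.27, -0.88, -1.07 and -2.23, and for Gata4 -1.20, -0.89, -0.70 and -1.64. Nr5a1 followed with -0.59, -0.50, -0.44 and -1.36. In each of these genes the XX control had the largest step, and in Lhx9, Emx2 and Gata4 an XY KO sample the smallest. For Nr5a1 the step of the XY control was -0.24 or -1.06 from 1 technical replicate alone, so its place among the samples is not settled. Zfpm2 had ratios of 0.33, 0.48, 0.71 and 0.12, and Wt1 stayed between -0.25 and -0.12.

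From pre-supporting to Sertoli cells, 3 of 8 members compared in the XY control lay at least 2-fold apart, against 8.83% of all genes. Lhx9 was lower by -2.64 and Emx2 by -1.31, and Nr5a1 was higher by 1.08. In the XY KO at E11.75, the other sample with at least 50 Sertoli cells, Lhx9 was lower by -2.18 and Emx2 by -0.36, and Nr5a1 stood at 0.20 (-0.005 to 0.395). Gata4 was higher in Sertoli cells by 0.53 in the XY control and stood at 0.15 (-0.04 to 0.34) in the XY KO at E11.75. Wt1 was higher by 0.14 and 0.17. Nr0b1 was lower by -0.62 in the XY control and stood at 0.36 (-0.005 to 0.71) in the XY KO at E11.75. The intervals of Nr5a1, Gata4 and Nr0b1 in the XY KO included 0, so their direction there is not settled. From 1 technical replicate of the XY control alone the Nr5a1 ratio was 0.999, just short of 2-fold.

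**Figure D2:**
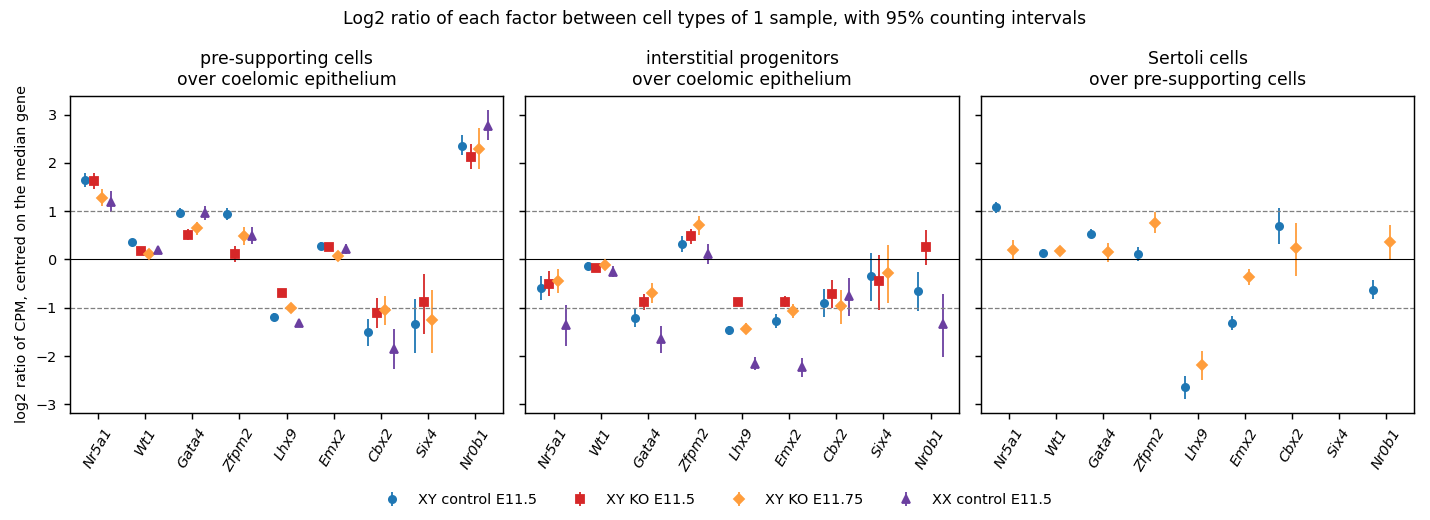
Log2 ratio of each gene between cell types, in each sample, with exact 95% counting intervals, for pre-supporting cells over coelomic epithelium, interstitial progenitors over coelomic epithelium and Sertoli over pre-supporting cells; dashed lines mark 2-fold. Nr5a1 and Nr0b1 lie above the upper line in all 4 samples in the first panel, and Lhx9 lies below 0 in every panel.

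In pre-supporting cells at E11.5, Zfpm2 was the 1 member at least 1.5-fold different between XY KO and XY control. The comparison asks how the early regulators stood in XY gonads without miR-17~92 at the time when Sry acts. Of 8 members with at least 100 UMIs over both samples, 1 was past 1.5-fold, beside 9.74% of all genes compared. Zfpm2 had 141.3 CPM (133.1 to 149.8) in the XY control, 79.94 CPM (72.97 to 87.41) in the XY KO at E11.5, 134.4 CPM (124.0 to 145.5) in the XY KO at E11.75 and 115.8 CPM (107.8 to 124.1) in the XX control. The XY KO at E11.5 was thus below the other samples, and its interval did not meet theirs. Its log2 ratio to the XY control was -0.73 (-0.89 to -0.57), a fold of 0.604. Gata4, its partner, had 254.2 CPM in the XY control, 187.8 in the XY KO at E11.5, 244.7 in the XY KO at E11.75 and 221.9 in XX control cells, with a log2 ratio of -0.34 (-0.45 to -0.24) at E11.5. In these cells the 8 supporting markers summed to 3251, 2748, 3581 and 3653 CPM in the same order, with Sry at 0 in the XX control. Markers of the coelomic epithelium, whose medians of Zfpm2 and Gata4 are lower, summed to 106.0, 166.4, 105.7 and 114.7 CPM. Their part in the ratios was not tested.

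Nr0b1 was lower in pre-supporting cells of both XY KO samples. It had 110.5 CPM (103.3 to 118.1) in the XY control, 73.14 CPM (66.48 to 80.3) in the XY KO at E11.5, 64.06 CPM (56.95 to 71.82) in the XY KO at E11.75 and 131.4 CPM (122.9 to 140.3) in the XX control. The 2 XY KO samples overlapped each other and lay below both controls. The log2 ratio to the XY control was -0.50 (-0.67 to -0.34) at E11.5 and -0.97 (-1.17 to -0.78) at E11.75, a fold of 0.511 at the later stage. Markers of the adrenal cortex, a tissue that also uses Nr0b1, summed to 108.3 CPM in pre-supporting cells of the XY control, 35.99 CPM in the XY KO at E11.5, 25.49 CPM in the XY KO at E11.75 and 163.1 CPM in the XX control. Of these 5 markers, Star, Cyp11a1, Cyp21a1, Mc2r and Hsd3b1, Cyp21a1 was at 0 in both XY KO samples and none was in the controls. Adrenal cells themselves held 10.62 to 30.03 CPM of Nr0b1 in 3 samples, below the 64.06 to 131.4 CPM of pre-supporting cells. The sum of the adrenal cortex markers ran in the same order as Nr0b1, and their part in it was not tested.

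Lhx9 and Emx2 were higher in pre-supporting cells of both XY KO samples, by less than 1.5-fold after centring. Lhx9 had 257.0 CPM in the XY control, 331.4 in the XY KO at E11.5, 414.4 in the XY KO at E11.75 and 253.9 in XX control cells. The log2 ratios of the XY KO samples to the XY control were 0.46 (0.37 to 0.55) and 0.50. Lhx9 passed 1.5-fold at E11.5 with 1 technical replicate of the XY KO, at 0.62, and at E11.75 without centring, at 0.69, or with a minimum of 500 UMIs, at 0.61. Emx2 had 290.6 CPM in the XY control, 330.2 in the XY KO at E11.5, 419.5 in the XY KO at E11.75 and 351.5 in XX control cells, with log2 ratios of 0.28 (0.19 to 0.36) and 0.34. Both genes were lower in Sertoli than in pre-supporting cells. The pre-supporting cluster of the XY control also carried more of the 8 Sertoli markers, of which Sox10 was at 0 in both XY KO samples, in sum 315.2 CPM against 57.55 in the XY KO at E11.5, 141.4 in the XY KO at E11.75 and 76.24 in XX control cells. Markers of the coelomic epithelium, where Lhx9 is highest, summed to 106.0, 166.4, 105.7 and 114.7 CPM in the same order, with 1 of 5 at 0 in each sample, and 5 mesenchyme markers, none at 0, to 166.2, 238.8, 322.1 and 152.6 CPM. The part of these markers in the ratios was not tested.

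Nr5a1 and Wt1 differed less. Nr5a1 had 162.3 CPM (153.6 to 171.5) in the XY control, 140.5 CPM (131.2 to 150.3) in the XY KO at E11.5 and 217.5 CPM (204.2 to 231.4) in the XY KO at E11.75, and the centred log2 ratios were -0.12 (-0.24 to 0.01) and 0.24. Wt1 had 584.2 CPM (567.5 to 601.3), 498.2 CPM (480.6 to 516.4) and 751.3 CPM (726.4 to 776.8) in the same samples, with ratios of -0.14 and 0.18. Wt1 was thus on opposite sides of the XY control at the 2 stages. For Nr5a1 the interval at E11.5 held both signs, so its direction there is not settled. In cells with at least 5000 UMIs its ratio at E11.5 was 0.005. Cbx2, the Polycomb subunit, had 16.36 CPM (13.66 to 19.44) in the XY control, 18.58 CPM (15.3 to 22.35) in the XY KO at E11.5 and 30.29 CPM (25.46 to 35.76) in the XY KO at E11.75, so that it was past 1.5-fold at E11.75 with a log2 ratio of 0.70 (0.35 to 1.06). Centred on genes with 3′ UTRs of like length its ratio was 0.56, and with Sertoli cells added 0.48, both short of 1.5-fold. Six4 was too low in pre-supporting cells to compare, with 3.687 to 6.537 CPM.

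At E11.75, 2 of the 8 members, Cbx2 and Nr0b1, were past 1.5-fold from the XY control in pre-supporting cells, beside 23.2% of all genes compared. This share was far larger than at E11.5, and the XY control was of the earlier stage, so the deletion and the stage cannot be told apart here. Across genes, the ratio to the XY control at E11.75 also ran with 3′ UTR length, with a Spearman rho of 0.385 over genes that are not independent. Genes with 3′ UTRs of at least 2392 bases had a median log2 ratio of 0.22, and an equal share of genes with the shortest 3′ UTRs had -0.31. The 3′ UTR of Nr0b1, 352 bases, is the shortest of the members, and those of Lhx9 and Six4 are the longest, 3468 and 5170 bases. Centred on genes of like 3′ UTR length, Nr0b1 stood at -0.68, still past 1.5-fold, Cbx2 at 0.56, Lhx9 at 0.33, Emx2 at 0.27 and Wt1 at 0.11, each nearer to 0 than before, whereas Gata4 went from -0.24 to -0.31 and Zfpm2 stayed at -0.26. At E11.5 rho was -0.12, and Zfpm2 kept its value of -0.73 under that centring.

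Pre-supporting cells were also summed together with Sertoli cells, since the XY control had 752 Sertoli cells against 24 in the XY KO at E11.5, 168 in the XY KO at E11.75 and 2 in XX control cells, and the cells compared were therefore not a like share of the lineage. In the combined supporting lineage at E11.5 Zfpm2 stood at -0.69 and Nr5a1 at -0.56. Lhx9 reached 0.93 and Emx2 0.61, both past 1.5-fold, and Nr0b1 was at -0.26, nearer to 0 than in pre-supporting cells alone. At E11.75, Lhx9 stood at 0.78, Emx2 at 0.63, Nr0b1 at -0.70 and Nr5a1 at -0.18. Nr5a1 thus differed more from the XY control at E11.5 than in pre-supporting cells alone, and changed sides of 0 at E11.75.

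**Figure D3:**
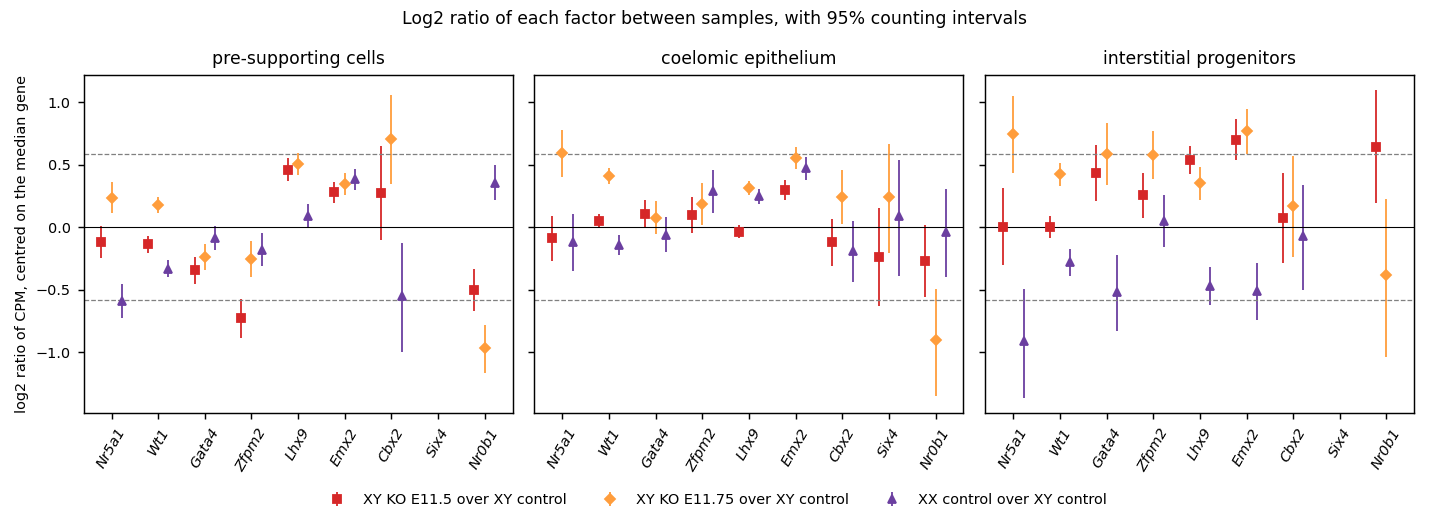
Log2 ratio to the XY control of each gene in pre-supporting cells, coelomic epithelium and interstitial progenitors, for the XY KO at E11.5, the XY KO at E11.75 and the XX control, centred on the median gene, with exact 95% counting intervals; dashed lines mark 1.5-fold. Zfpm2 of the XY KO at E11.5 and Nr0b1 of the XY KO at E11.75 lie below the lower line in pre-supporting cells, and Nr5a1 of the XX control lies below it in pre-supporting cells and interstitial progenitors.

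In the coelomic epithelium, where the lineage starts, the XY KO at E11.5 was close to the XY control. Of 9 members 0 were past 1.5-fold, beside 5.38% of all genes compared, and the ratios ran from -0.27 for Nr0b1 to 0.30 for Emx2. Zfpm2 had 77.6 CPM in the XY control and 77.16 CPM in the XY KO at E11.5, so its difference in pre-supporting cells was not seen here. Lhx9 had 614.9 CPM in the XY control, 556.9 in the XY KO at E11.5, 842.6 in the XY KO at E11.75 and 669.7 in XX control cells. At E11.75, 2 of 9 members were past 1.5-fold, beside 17.9% of all genes compared. Nr0b1 had 22.62 CPM in the XY control, 17.44 in the XY KO at E11.5, 13.25 in the XY KO at E11.75 and 20.18 in XX control cells, with a log2 ratio of -0.90 (-1.35 to -0.49) at E11.75. Nr5a1 stood at 0.59 (0.40 to 0.78), a fold of 1.51, and lost that call under 5 alternatives, among them 0.54 with centring by 3′ UTR length and 0.54 with 1 technical replicate of the XY control. Emx2 stood at 0.55 and Wt1 at 0.41. There the 8 supporting markers summed to 597.5 CPM in this sample against 421.5 in the XY control, and the 5 mesenchyme markers to 877.4 against 507.0 CPM, with none at 0, and their part in these ratios was not tested.

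In interstitial progenitors at E11.5, 2 of 8 members, Emx2 and Nr0b1, were past 1.5-fold above the XY control. Of all genes compared, 6.15% were past it either way and 2.83% above. Emx2 had 106.6 CPM (97.5 to 116.3) in the XY control, 157.9 CPM (147.3 to 169.1) in the XY KO at E11.5, 197.8 CPM (181.4 to 215.4) in the XY KO at E11.75 and 68.9 CPM (60.3 to 78.38) in the XX control. No interval met another. The log2 ratio was 0.70 (0.54 to 0.86) at E11.5 and 0.77 (0.59 to 0.94) at E11.75, though the first was 0.57 without centring, short of 1.5-fold. Nr0b1 was past 1.5-fold at E11.5 as well, at 0.64 (0.20 to 1.10) from 109 against 70 UMIs, but fell short of it under 5 alternatives, down to 0.42 with 1 technical replicate of the XY KO, and at E11.75 it stood at -0.38, or -0.07 with centring by 3′ UTR length. Lhx9 stood at 0.54 with 229.6 CPM in the XY control and 304.5 in the XY KO at E11.5, Gata4 at 0.43 and Zfpm2 at 0.25. Wt1 and Nr5a1 were at 0.00 and Cbx2 at 0.07 after centring. In CPM these 3 were lower in the XY KO, Wt1 with 409.2 against 448.0, Nr5a1 with 34.13 against 37.28 and Cbx2 with 25.84 against 26.96, so their direction depended on the scaling. The technical replicates of the XY control also differed in Cbx2, with 34.57 and 18.16 CPM, and against the lower one alone its ratio was 0.62, past 1.5-fold. The 5 markers of the coelomic epithelium, where Emx2, Lhx9 and Gata4 are higher, summed to 70.35 CPM in interstitial progenitors of the XY control, 109.9 in the XY KO at E11.5, 89.99 in the XY KO at E11.75 and 45.33 in XX control cells. Of them, 1 was at 0 in each XY KO sample and none in the controls, and the part of these markers in the ratios was not tested.

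At E11.75, 3 of 8 members were past 1.5-fold in interstitial progenitors, beside 20.6% of all genes compared. Besides Emx2 these were Nr5a1 and Gata4. All 3 lay past it on the higher side, as did 8.15% of all genes compared. In this cluster the 5 mesenchyme markers summed to 2839 CPM in the XY KO at E11.75 against 1473 CPM in the XY control and the 8 interstitial markers to 3170 against 1938 CPM, with none at 0, and their part in these ratios was not tested. Nr5a1 had 37.28 CPM in the XY control, 34.13 in the XY KO at E11.5, 68.05 in the XY KO at E11.75 and 18.19 in XX control cells, with a log2 ratio of 0.74 (0.44 to 1.05). The 2 technical replicates of the XY control differed here by 0.74 on the log2 scale, 45.97 against 27.24 CPM, and against the one with the higher level alone the ratio was 0.46. Gata4 had 60.87 CPM in the XY control, 75.02 in the XY KO at E11.5, 99.66 in the XY KO at E11.75 and 39.07 in XX control cells, with a ratio of 0.59 (0.34 to 0.83) that was lost under 7 of 11 alternatives, at 0.52 to 0.58, and was 1.37 in cells of at least 5000 UMIs. Of the 3 types compared throughout, interstitial progenitors had the highest median of the members' ratios, 0.34 at E11.5 and 0.50 at E11.75, where the median of all genes is 0 by construction. In pre-supporting cells these medians were -0.13 and 0.21, and in the coelomic epithelium -0.04 and 0.24. In other types the medians at E11.75 ran from -0.07 over 9 members in mesonephric mesenchyme to 0.65 over 5 members in endothelial cells. The higher median at that stage was thus not particular to interstitial progenitors.

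In Sertoli cells, the XY control could be compared with the XY KO at E11.75, and 2 of 8 members were past 1.5-fold, beside 27.0% of all genes compared. The deletion and the stage cannot be told apart here, and no alternative was run for ratios between samples in these cells. Emx2 had 116.1 CPM in the XY control and 333.1 CPM in the XY KO, a log2 ratio of 1.38 (1.18 to 1.58) and a fold of 2.60. Lhx9 had 40.69 and 92.54 CPM, a ratio of 1.05 (0.67 to 1.41). Both genes fade along this lineage, and in the 168 Sertoli cells of the XY KO Emx2 was nearer to its level in pre-supporting cells. Its log2 ratio of Sertoli over pre-supporting cells was -0.36 (-0.53 to -0.19), against -1.31 (-1.46 to -1.17) in the XY control. For Lhx9 the intervals overlapped, with -2.18 (-2.50 to -1.89) and -2.64 (-2.88 to -2.42). The 8 Sertoli markers summed to 2623 CPM in Sertoli cells of the XY control and 1676 CPM in those of the XY KO, with none at 0, and their part in these ratios was not tested. Nr5a1 went the other way, with 339.8 CPM in the XY control and 254.2 CPM in the XY KO, a ratio of -0.56 (-0.76 to -0.37), as did Gata4, with 364.8 and 276.6 CPM and a ratio of -0.54 (-0.73 to -0.36). Wt1 had 638.6 and 863.1 CPM, and Zfpm2 151.9 and 232.8 CPM with a ratio of 0.48.

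Supporting-like cells, an early lineage that forms the rete of the gonad, had little Lhx9, with log2 ratios to the coelomic epithelium of -4.12, -4.13, -3.71 and -4.27 in the XY control, the XY KO at E11.5, the XY KO at E11.75 and the XX control. Nr0b1 was higher there than in the coelomic epithelium by 2.40, 2.17, 2.82 and 3.08. In the XY KO at E11.75, 3 of 7 members were past 1.5-fold from the XY control in these cells, beside 24.1% of all genes compared. They were Lhx9 at 0.76, Gata4 at 0.71 and Emx2 at 0.66, and the deletion and the stage cannot be told apart here either. Adrenal cells, which share an origin with the gonad and need Nr5a1, had 287.9 CPM of Nr5a1 in the XY control, 137.3 in the XY KO at E11.5 and 180.6 in the XX control. The log2 ratios to the XY control were -1.02 (-1.32 to -0.73) and -0.64 (-0.88 to -0.40), beside 6.93% and 6.1% of all genes past 1.5-fold, with Nr5a1 the 1 member that could be compared. The adrenal sum of the XY KO at E11.75 held only 8 cells.

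Between XX control and XY control, Nr5a1 was lower in the XX control in pre-supporting cells and interstitial progenitors. In pre-supporting cells 1 of 8 members was past 1.5-fold, beside 8.08% of all genes compared. Nr5a1 had 162.3 CPM in the XY control against 100.3 CPM (92.88 to 108.1) in the XX control, below every XY sample, with a log2 ratio of -0.59 (-0.72 to -0.45). It fell short of 1.5-fold under 4 alternatives, at -0.45 in cells with at least 5000 UMIs, -0.46 as the mean over cells, -0.54 by 3′ UTR length and -0.53 with 1 technical replicate of the XX control, and was -1.04 with Sertoli cells added. The 8 Sertoli markers, of cells with more Nr5a1, summed to 315.2 CPM in pre-supporting cells of the XY control and 76.24 in the XX control. Adrenal cortex markers, also of cells with more Nr5a1, went the other way, with 108.3 and 163.1 CPM. The part of these markers in the ratio was not tested. Cbx2 stood at -0.55 (-1.0 to -0.13) and passed 1.5-fold under 4 alternatives, at -0.66 without centring, -0.82 as the mean over cells, -0.80 with Sertoli cells added and -0.97 with 1 technical replicate of the XX control. Wt1 stood at -0.33, Lhx9 at 0.09, Nr0b1 at 0.36 and Emx2 at 0.38. In the coelomic epithelium 0 of 9 members were past 1.5-fold, beside 8.16% of all genes compared, with Emx2 farthest from 0 at 0.47. In interstitial progenitors 1 of 7 members was, beside 6.79% of all genes compared: Nr5a1 at -0.91 (-1.36 to -0.49), from 61 UMIs in the XX control and 177 in the XY control, and -0.49 against 1 technical replicate of the XY control. Gata4 at -0.52, Emx2 at -0.51 and Lhx9 at -0.47 lay on the same side. Markers of the coelomic epithelium summed to 45.33 CPM in interstitial progenitors of the XX control against 70.35 CPM in the XY control, and the 8 supporting markers to 293.2 against 452.4 CPM, with 1 of the latter at 0 in the XX control. The 3 supporting-like markers, of cells with more Nr5a1, summed to 121.7 against 263.1 CPM, with none at 0. Their part in these ratios was not tested. Nr5a1, Gata4, Emx2 and Lhx9 thus lay below the XY control here, whereas in interstitial progenitors of the XY KO at E11.75 they lay above it, Lhx9 by 0.35.

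Between the 2 stages of XY KO, 0 of 8 members were past 1.5-fold in pre-supporting cells, beside 25.5% of all genes compared. Without centring 4 of 8 were, Zfpm2 at 0.75, Cbx2 at 0.70, Nr5a1 at 0.63 and Wt1 at 0.59, since the median gene stood at 0.28. After centring, Zfpm2 was higher by 0.47 at E11.75 and Nr5a1 by 0.35, while Nr0b1 was at -0.47. In the coelomic epithelium 2 of 9 members were past it, beside 19.8% of all genes compared, Nr5a1 at 0.66 (0.47 to 0.86) and Nr0b1 at -0.65 (-1.11 to -0.22). The same 2 members were past it in interstitial progenitors, Nr5a1 at 0.72 (0.41 to 1.03) and Nr0b1 at -1.04 (-1.66 to -0.48), beside 26.9% of all genes compared. Nr5a1 and its repressor thus lay on opposite sides in both types. Ratios between the stages ran with 3′ UTR length, with a Spearman rho of 0.444 in the coelomic epithelium and 0.462 in interstitial progenitors, and centred by it Nr0b1 stood at -0.60 in interstitial progenitors. In that cluster the supporting markers summed to 575.2 CPM at E11.75 against 397.8 at E11.5, with 1 of 8 at 0 at each stage, and the mesenchyme markers to 2839 against 1409 CPM, and their part in the ratios was not tested. In the coelomic epithelium Nr0b1 was not past 1.5-fold with centring by 3′ UTR length, at -0.27, without centring, at -0.39, or with 1 technical replicate of the XY KO at E11.5, at -0.55. With that replicate Nr5a1 was at 0.57 in interstitial progenitors, short of 1.5-fold as well.

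Over all cell types compared, Wt1 lay on one side of the XY control throughout in 2 of the comparisons. It was higher in the XY KO at E11.75 than in the XY control in 11 of 11 types, with a median log2 ratio of 0.41 and 1 past 1.5-fold, and lower in the XX control in 11 of 11, with a median of -0.28 and 3 past 1.5-fold. Types such as mesonephric epithelium share these ratios with the gonad. Nr5a1 was lower in the XX control in 6 of 6 types, and was lower in 5 of 6 in the XY KO at E11.5 but higher in 5 of 6 at E11.75. Nr0b1 was lower in 4 of 5 types of the XY KO at E11.5 and in 5 of 6 at E11.75. Zfpm2 was lower in 5 of 8 types of the XY KO at E11.5, past 1.5-fold in pre-supporting cells alone among them. Six4 was lower in 5 of 5 types of the XY KO at E11.5 and higher in 5 of 5 at E11.75, and Gata4 was lower in 5 of 5 of the XX control. These comparisons share the XY control, and types of 1 sample share its library. How many of all genes lie on the same side in every type was not counted.

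Counted per cell, the factors overlapped in pre-supporting cells. Each cell was thinned to 3000 UMIs, which left out 173, 54, 93 and 3 pre-supporting cells of the XY control, the XY KO at E11.5, the XY KO at E11.75 and the XX control. Of the 9 genes, a thinned pre-supporting cell had a UMI of 3.326, 3.043, 3.674 and 3.186 on average in that order, and at least 3 of the 9 were seen in 74.25%, 66.89%, 84.36% and 68.77% of cells. Coelomic epithelium followed with 2.835, 2.748, 3.403 and 2.843, and interstitial progenitors with 1.855, 2.183, 2.616 and 1.542. Germ cells had 0.2619 to 0.4768. Pre-supporting cells thus carried the most members of the gonadal types in each sample, with Sertoli cells between them and the epithelium at 3.064 in the XY control and 3.577 in the XY KO at E11.75.

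**Figure D4:**
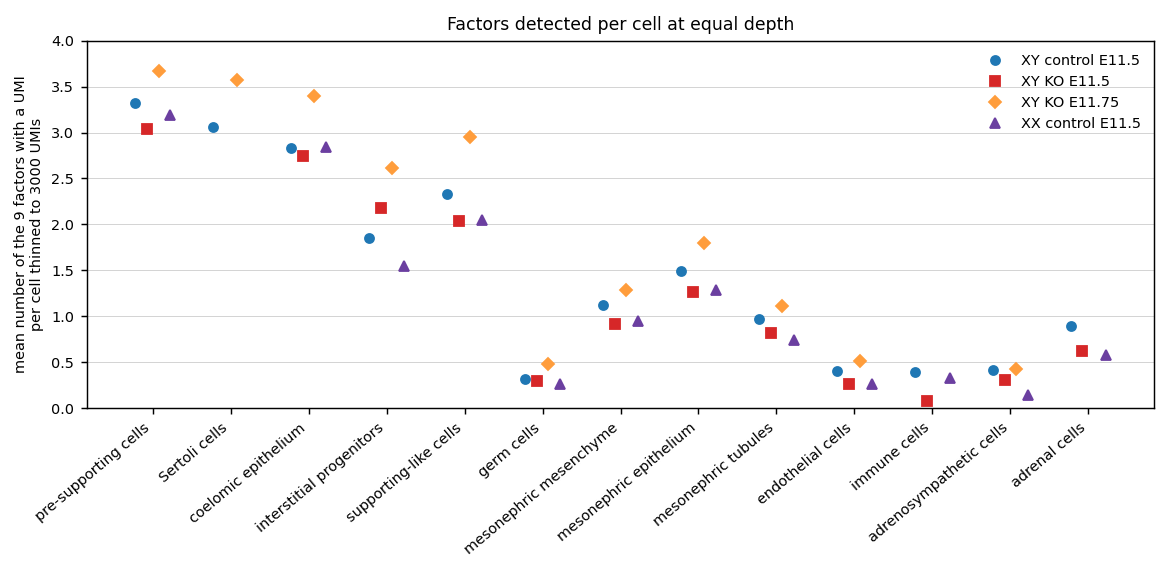
Mean number of the 9 genes with a UMI per cell, in cells thinned to 3000 UMIs, by cell type and sample. Pre-supporting cells lie between 3.043 and 3.674, and germ cells between 0.2619 and 0.4768.

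The share of thinned pre-supporting cells with a Zfpm2 UMI was 34.26% (31.84% to 36.76%, exact binomial interval) in the XY control, 20.97% (18.52% to 23.59%) in the XY KO at E11.5, 30.08% (26.98% to 33.33%) in the XY KO at E11.75 and 26.65% (22.08% to 31.62%) in XX control cells. The order of the samples was that of the CPM, but here the intervals of the XY KO at E11.5 and the XX control overlapped. In endothelial cells, set as the background type, 9.091% to 12.77% of cells had a Zfpm2 UMI, but these cells also held 45.7 CPM of Zfpm2. In germ cells, with 3.817 CPM, it was 0.0% to 0.8993% of thinned cells, and 1.974% to 11.9% unthinned, at median depths of 9279.5 to 40644 UMIs. Unthinned, the shares in pre-supporting cells were 44.73%, 33.86%, 44.7% and 78.41%, at median depths of 4522, 5349, 4661 and 17498.5 UMIs over all pre-supporting cells, against 4796, 8373.5, 5343 and 17632 in endothelial cells. Nr0b1 was seen in 25.48% (23.26% to 27.79%), 16.7% (14.47% to 19.12%), 13.72% (11.45% to 16.25%) and 31.23% (26.4% to 36.38%) of thinned pre-supporting cells, and in at most 0.491% of endothelial cells. Both XY KO samples were below both controls, as in the CPM. Unthinned these shares were 33.76%, 26.66%, 21.43% and 70.17%.

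Wt1 was seen in 71.63% to 88.09% of thinned pre-supporting cells, Gata4 in 41.17% to 52.45%, Lhx9 in 44.69% to 61.25% and Emx2 in 52.52% to 67.87%. Nr5a1 was seen in 38.01% in the XY control, 34.76% in the XY KO at E11.5, 44.16% in the XY KO at E11.75 and 29.51% in XX control cells, against at most 1.309% in endothelial cells. Cbx2 was seen in 2.865% to 8.664% of pre-supporting and 5.0% to 9.79% of endothelial cells, so its share did not stand above that of endothelial cells, which had 19.81 CPM of Cbx2 and are no clean background for it.

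Genes related to the 9 members were taken from fixed lists, chosen with earlier results of these data known, and compared in pre-supporting cells by the same fold. Of 14 other regulators of the early gonad, 11 could be compared, and in the XY KO at E11.5 none was past 1.5-fold, beside 9.74% of all genes, with a median log2 ratio of 0.13. At E11.75, 5 of 11 were, beside 23.2% of all genes. Insr (1.21) and Igf1r (0.78), receptors of insulin and IGF1 needed for Sry expression, were higher, and Zfpm1 (-0.93), Gadd45g (-0.86) and Tcf21 (-0.70) lower. Insr, Zfpm1, Gadd45g and Tcf21, but not Igf1r, were also past 1.5-fold in the same direction between the XY KO stages, beside 25.5% of all genes. The deletion and the stage cannot be told apart here, and list genes were not centred by 3′ UTR length. In the XX control 1 of 11, Cited2 (0.97), a coactivator that works with Wt1, was past it and higher. Of all genes compared, 8.08% were past it either way and 2.91% higher. Of 11 partners of Cbx2 in Polycomb complexes, 10 could be compared, with none past 1.5-fold in the XY KO at E11.5 or the XX control, beside 9.74% and 8.08% of all genes. At E11.75, 2 of 10, Cbx6 (1.22) and Phc3 (0.68), were past it and higher, beside 23.2% of all genes either way and 9.16% higher. Both were also past 1.5-fold and higher at E11.75 between the XY KO stages. Of 8 paralogs of the members 3 could be compared. Zfpm1, also among the 14 regulators above, was the 1 gene past 1.5-fold at E11.75, beside 23.2% of all genes. None was in the XY KO at E11.5 or the XX control, beside 9.74% and 8.08%.

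Of 10 genes known to be activated by the members, 7 could be compared in pre-supporting cells. Their median log2 ratio was -0.89 in the XY KO at E11.5, with 4 of 7 past 1.5-fold beside 9.74% of all genes, -1.07 at E11.75, with 4 of 7 beside 23.2%, and -0.86 in the XX control, with 5 of 7 beside 8.08%. The list was chosen with earlier results of these data known and holds Sry and Sox9, which the study is about. The counts therefore describe these genes and are no test of an excess over the share. The XX median includes Sry, which XX cells lack. In the coelomic epithelium the medians, over 5 genes, were -0.02, -0.36 and -0.47 in the same order, and in interstitial progenitors -0.11 over 5 genes, then -0.19 and -0.62 over 3 genes. In the XY KO at E11.5, Sox9 (-3.22), the Sertoli determinant, Cyp11a1 (-1.84) and Star (-0.89), which start steroid synthesis, and Sry (-1.40) were lower. At E11.75, Cyp11a1 (-3.91), Sox9 (-1.36), Star (-1.14) and Inha (-1.07), the inhibin subunit, were lower. In the XX control Sox9 (-4.31), Scarb1 (-0.95), a cholesterol receptor, and Star (-0.86) were lower and Cyp11a1 (1.12) was higher, and Sry had 0 UMIs against 115, which allows up to 0.4424 CPM. Star and Cyp11a1 are also among the adrenal cortex markers given above, whose level in pre-supporting cells was lower in both XY KO samples.

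Over the 48 sums of at least 50 cells, by cell type and sample, the genes closest to each member were found among 11848 genes by Pearson's r of log2(CPM + 1). These points share libraries and cell types, and the values are a description. The most similar were AC167229.1 (0.933) and Defb19 (0.922) for Nr5a1, Wt1os (0.949) and Vasn (0.944) for Wt1, and Lgals7 (0.941) and Amhr2 (0.940), the receptor of anti-Müllerian hormone, for Gata4. Serinc5 (0.903) and Cgnl1 (0.893) were closest to Zfpm2, Tceal6 (0.887) and 2610028E06Rik (0.881) to Lhx9, and Rspo1 (0.956), a secreted activator of WNT signalling in the ovary, and Emx2os (0.954) to Emx2. D630045J12Rik (0.897) and Gpr161 (0.892) came closest to Cbx2, Cpne5 (0.856) and Ybx2 (0.831), a germ cell RNA-binding protein, to Six4, and Etnk2 (0.899) and Prcd (0.898) to Nr0b1. Among the members themselves, Wt1 and Emx2 were the most alike (0.900), followed by Nr5a1 and Gata4 (0.868), and Nr5a1 and Six4 the least (-0.375).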

How the data were processed

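Gonads with mesonephros were dissociated, fixed in methanol and profiled with 10x 3′ chemistry. The authors counted UMIs with Cell Ranger 6.1.1 on mm10 with an exon of Sry added, filtered cells and doublets, by other limits in XX than in XY cells, and integrated the samples in Seurat to cluster and name cells. The deposited values used here are raw counts, with the authors' cell types, several of them renamed as given above. A 3′ count does not scale with gene length. The XY control, the XY KO at E11.5 and the XX control each merge 2 technical replicates, which are separate sets of cells, and the XY KO at E11.75 has 1.

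UMIs were summed by cell type and sample. CPM ratios were taken on the log2 scale with a prior count of 0.5 and centred on the median of genes with at least 100 UMIs over both sums, which before centring was -0.13 to 0.19 against the XY control and 0.26 to 0.28 between the XY KO stages in the 3 main types and was subtracted. Groups of 1 sample allow no test between them, and "past" means at least 1.5-fold between samples or 2-fold between cell types, for sums of at least 50 cells. Shares of all genes past a fold count both directions unless a direction is named. The procedure was tested on simulated data. TMM factors (edgeR 4.0.16, R 4.3.3), no centring, totals without mitochondrial, ribosomal and globin genes, mean CPM per cell, cells of at least 5000 UMIs, a prior count of 5, minimums of 50 and 500 UMIs, single technical replicates and other thinning depths were alternatives. Centring by 3′ UTR length and summing pre-supporting with Sertoli cells were added after seeing the data. For ratios between samples, alternatives were run in the 3 main types only, and for ratios between types in the XY control only. All 9 members were named, with the 2 genes most alike each (at least 1000 UMIs in all) and up to 4 genes per direction of each list past the fold. The members and lists were chosen with earlier results of these data known. Gene positions and 3′ UTRs came from GENCODE (mm10) and miRNAs from RefSeq. Python 3.11.15, numpy 2.4.6, scipy 1.17.1, pandas 2.3.3 and matplotlib 3.10.9 were used.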

Additional observations from a re-analysis of the deposited data

How the results depend on the processing

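Of 178 alternatives for the counts of members past the fold, 142 kept the count within 1.5 times and 36 moved it, and of 1433 alternatives for single members' ratios 1280 moved by less than counting error and none reversed a called ratio. In pre-supporting cells, the count for the XY KO at E11.5 (1) was 2 without centring, 2 with 1 technical replicate of the XY KO and 3 with Sertoli cells added, and that for the XY KO at E11.75 (2) was 1 by 3′ UTR length. For the XX control (1) it was 2 without centring, 0 in cells of at least 5000 UMIs, 0 by 3′ UTR length, 4 with Sertoli cells, and 2 or 0 with 1 technical replicate of the XX control. Between the XY KO stages (0) it was 4 without centring and 1 at a minimum of 500 UMIs. In the coelomic epithelium, the count at E11.75 (2) was 1 with TMM, a prior count of 5, a minimum of 50 UMIs, centring by 3′ UTR length or 1 technical replicate of the XY control, and between stages (2) it was 5 without centring and 1 at 500 UMIs, by 3′ UTR length or with 1 technical replicate of the XY KO. In interstitial progenitors, the count at E11.5 (2) was 0 without centring and 1 as mean CPM, at 500 UMIs or with 1 technical replicate of the XY KO. At E11.75 (3) it was 5 in cells of at least 5000 UMIs and 1 or 5 with 1 technical replicate of the XY control. For the XX control (1) it was 3 without centring, 2 at 50 UMIs and 2 with 1 technical replicate of the XX control, and between stages (2) it was 0 at 500 UMIs and 1 or 0 with 1 technical replicate of the XY KO. Interstitial progenitors over coelomic epithelium (3) had 5 in cells of at least 5000 UMIs and 5 with 1 technical replicate of the XY control.

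Thinned to 2000 or 5000 UMIs in place of 3000, the shares of XY control pre-supporting cells were 27.39% and 47.61% for Nr5a1, 66.25% and 88.69% for Wt1, 39.49% and 70.22% for Gata4, 23.08% and 49.52% for Zfpm2, 34.81% and 55.89% for Lhx9, 40.67% and 69.75% for Emx2, 3.182% and 7.643% for Cbx2, 18.09% and 34.39% for Nr0b1 and, for Six4, 2.389% at 5000, since more UMIs per cell find more cells with a gene.

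Zfpm2 in pre-supporting cells at E11.5, Nr0b1 in pre-supporting cells and coelomic epithelium at E11.75 and Emx2 in interstitial progenitors at E11.75 stayed past 1.5-fold under every alternative run. No paired analysis was possible because each group was 1 sample, and leaving out a biological replicate was not possible either. Technical replicates show technical spread only. Where a call moved, the cause was not tested. Depth limited Six4, with under 100 UMIs over both samples in pre-supporting cells and interstitial progenitors, and Nr0b1 in the latter between XX and XY control.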
